A study of Homo sapiens with 6 samples.

Results

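The mitochondrial ribosomal protein genes, whose products build the ribosome inside mitochondria, were followed in BT549 cells treated with AS1842856, which acts on FOXO1. Members were chosen by name alone, as every gene of the annotation whose symbol is MRPL or MRPS followed by a number and at most 1 letter A, B or C, and this gave 78 of the 58735 genes counted. The name rule itself uses no measured value. By general knowledge of the proteins, 26 members encode the small subunit, 51 the large subunit, and MRPS36 encodes a part of the alpha-ketoglutarate dehydrogenase complex that carries the old ribosomal name. MRPS18A and MRPS30 were counted with the large subunit, where their proteins lie despite the letter S.

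BT549, a cell line long grown from a basal-like breast tumour, was the source of every library, and the RNA-Seq data were 3 libraries of cells given DMSO, the vehicle, and 3 libraries of cells given AS1842856, all collected after 48 h. The compound AS1842856 binds the forkhead transcription factor FOXO1 and hinders its contact with DNA. The published text proposes that it modulates FOXO1 and does not only inhibit it. For the dose, 200 nM stands in the sample labels and 1 μM in the published text, and which of them applies was not resolved. All 6 libraries came from 1 cell line and 1 compound, so other lines and other compounds acting on FOXO1 were not measured.

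The mitochondrial ribosome translates the mRNAs of the mitochondrial genome, which encode membrane subunits of the respiratory chain and of ATP synthase. Its rRNAs are made inside the organelle, whereas all of its proteins are encoded in the nucleus, translated in the cytosol and imported. Many of these proteins have a counterpart in the bacterial ribosome and the others are specific to mitochondria. In general knowledge of such promoters, sites for NRF1 and for GABP, an ETS family factor, are known from many nuclear genes of mitochondrial function, and MYC and ESRRA are known regulators of the same genes.

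The libraries held between 15289500 and 22981832 counts, and 14338 genes had enough counts for the test. Levels are given as CPM, counts scaled to library size by TMM, and levels of different genes are compared only as FPKM, which also divides by gene length. The mesenchymal genes VIM, CAV1 and CD44 were at 255 ± 9.67, 160 ± 1.85 and 89.2 ± 0.509 FPKM in DMSO (SD, n = 3), while ESR1, CDH1, PECAM1, CDH5 and CD3E held at most 1 count in any library. Lower levels were found for FN1, CDH2 and ZEB1 of the same list, at 25.8 ± 1.86, 22.5 ± 0.548 and 8.01 ± 0.324 FPKM. With AS1842856, VIM, CAV1, CD44 and CDH2 fell, whereas FN1 and ZEB1 rose (log2 fold changes 1.13 and 0.50). Not every luminal or epithelial marker was absent, since GATA3 was at 14.7 ± 0.694 FPKM and ERBB2 at 4.501 ± 0.197 FPKM in DMSO (SD, n = 3), while EPCAM held at most 8 counts. FOXA1 was at 0.358 ± 0.0996 FPKM in DMSO, and PGR held at most 4 counts. The leukocyte gene PTPRC was low in both groups, at 0.125 ± 0.0467 FPKM in DMSO and 0.342 ± 0.0516 FPKM with AS1842856. CD14, another leukocyte gene, held at most 19 counts in any library. The p-values measure the spread between these libraries, which the study calls biological replicates. In bulk RNA, fewer cells that express a gene and less of its RNA per cell cannot be told apart.

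The promoters of the 4 members with the largest increases and the 3 with the largest decreases that passed the test are shown because promoter sites of NRF1 and GABP are the shared feature most often described for these genes. Each stretch is the 250 bases before the first listed transcript start in RefSeq (GRCh38.p14), written 5′ to 3′ on the strand of the gene. Capitals mark the letters GCATGCG (NRF1 core), CCGGAAG (ETS/GABP core) or CACGTG (E-box), on either strand. MRPL46 lies at chr15:88467389-88467638 on the - strand, where the stretch also takes in the start of MRPS11, and MRPS30 at chr5:44808697-44808946 on the + strand, and neither holds any of these letters. MRPL52 lies at chr14:22829637-22829886 on the + strand, with 1 NRF1 core. An ETS/GABP core on its opposite strand runs across the start and is cut off by the end of the stretch, so it is not in capitals. MRPL3 lies at chr3:131502972-131503221 on the - strand, with 1 ETS/GABP core. MRPL33 lies at chr2:27771469-27771718 on the + strand, with 1 ETS/GABP core next to the start. MRPS14 lies at chr1:175023426-175023675 on the - strand and holds none. MRPL22 lies at chr5:154940823-154941072 on the + strand, with an E-box and with an NRF1 core that reads on both strands with 1 base of offset.
MRPL46: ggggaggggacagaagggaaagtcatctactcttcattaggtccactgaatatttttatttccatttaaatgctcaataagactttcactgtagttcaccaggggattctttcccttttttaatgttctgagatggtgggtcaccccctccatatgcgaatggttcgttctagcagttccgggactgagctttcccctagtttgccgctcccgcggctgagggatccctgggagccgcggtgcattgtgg
MRPS30: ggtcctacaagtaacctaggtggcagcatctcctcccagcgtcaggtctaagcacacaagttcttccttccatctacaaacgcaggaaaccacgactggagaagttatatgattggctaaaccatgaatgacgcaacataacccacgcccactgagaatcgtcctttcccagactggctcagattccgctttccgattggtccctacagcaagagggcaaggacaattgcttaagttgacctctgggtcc
MRPL52: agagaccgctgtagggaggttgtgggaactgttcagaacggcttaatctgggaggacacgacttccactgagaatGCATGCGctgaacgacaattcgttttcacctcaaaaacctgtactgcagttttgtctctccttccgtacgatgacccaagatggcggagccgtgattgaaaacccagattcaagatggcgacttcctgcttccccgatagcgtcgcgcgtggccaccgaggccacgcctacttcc
MRPL3: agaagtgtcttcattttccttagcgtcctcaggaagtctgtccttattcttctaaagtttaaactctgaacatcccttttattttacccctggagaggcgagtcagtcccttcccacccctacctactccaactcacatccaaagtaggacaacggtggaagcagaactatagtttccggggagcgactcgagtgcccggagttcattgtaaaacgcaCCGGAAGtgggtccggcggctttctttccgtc
MRPL33: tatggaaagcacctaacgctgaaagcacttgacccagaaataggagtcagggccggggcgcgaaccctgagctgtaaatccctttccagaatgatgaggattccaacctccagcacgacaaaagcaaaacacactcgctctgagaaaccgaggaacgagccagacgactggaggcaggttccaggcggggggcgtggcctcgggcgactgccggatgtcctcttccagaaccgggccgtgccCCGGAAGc
MRPS14: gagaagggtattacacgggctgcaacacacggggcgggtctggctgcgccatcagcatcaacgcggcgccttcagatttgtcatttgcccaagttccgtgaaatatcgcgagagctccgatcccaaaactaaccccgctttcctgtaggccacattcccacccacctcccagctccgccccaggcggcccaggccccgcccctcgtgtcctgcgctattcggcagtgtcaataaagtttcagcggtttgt
MRPL22: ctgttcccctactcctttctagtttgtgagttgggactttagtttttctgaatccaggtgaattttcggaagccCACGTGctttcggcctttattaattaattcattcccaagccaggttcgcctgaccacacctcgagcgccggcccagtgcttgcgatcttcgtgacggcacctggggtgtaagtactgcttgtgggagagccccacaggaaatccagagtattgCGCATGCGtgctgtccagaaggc

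Of the 70 members with a promoter in the RefSeq table, searched over 300 bases from 250 before to 50 after the start, 29 held CCGGAAG on either strand (41.4%), against 14.2% of 15843 protein-coding promoters. The NRF1 core GCATGCG stood in 7 of the 70 (10%), which were MRPL22, MRPL17, MRPL32, MRPS18C, MRPS18B, MRPS15 and MRPL52, against 5.14%. Either motif was present in 34 of the 70 (48.6%), against 18.3%. The forkhead core GTAAACA was in 0 of the 70, against 2.61% of protein-coding promoters. The E-box CACGTG was in 7 (10%, against 8.88%) and TATAAA in 3 (4.29%, against 9.63%). The background promoters were not limited to genes tested here, whereas all 78 members had enough counts for the test. These shares are descriptions without a test, a match is not a bound site, and a missing match says only that these letters are not in the window. CCGGAAG was in 7 of 27 promoters of members that rose, in 5 of 11 of members that fell and in 17 of 32 of members that did not pass the test, and these differences were not tested.

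Expression of the members moved in both directions, and by little. With AS1842856, 31 of the 78 members rose and 12 fell (39.7% and 15.4%), by the quasi-likelihood test of edgeR with Benjamini-Hochberg adjustment over all genes tested, while 35 did not pass. Over all 14338 genes tested, 27.6% rose and 28.4% fell, so the share of members called in either direction was close to the 56% of all genes. The median log2 fold change was 0.09 over the members and 0.00 over all genes. The members lay between -0.45 and 0.72, with an SD of 0.23, against an SD of 0.77 over all genes. A log2 fold change of at least 0.5 in size was found in 2 members (2.56%), against 27% of all genes, and none reached 1, against 10.7%. All genes were not matched to the members by level, and the part of level in these differences was not tested. Of the 31 members that rose, 14 rose by less than 20%, and of the 12 that fell, 11 lost less than 20%. The counts of 31 and 12 were found again with DESeq2's size factors and with library totals alone in place of TMM. In limma on log2(FPKM + 1), 29 members rose and 11 fell, against 25.3% and 25.2% of 13278 genes. DESeq2 called 24 higher and 8 lower, against 17.5% and 18.3% of 18975 genes, each of them among the members that edgeR called and in the same direction.

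**Figure D1:**
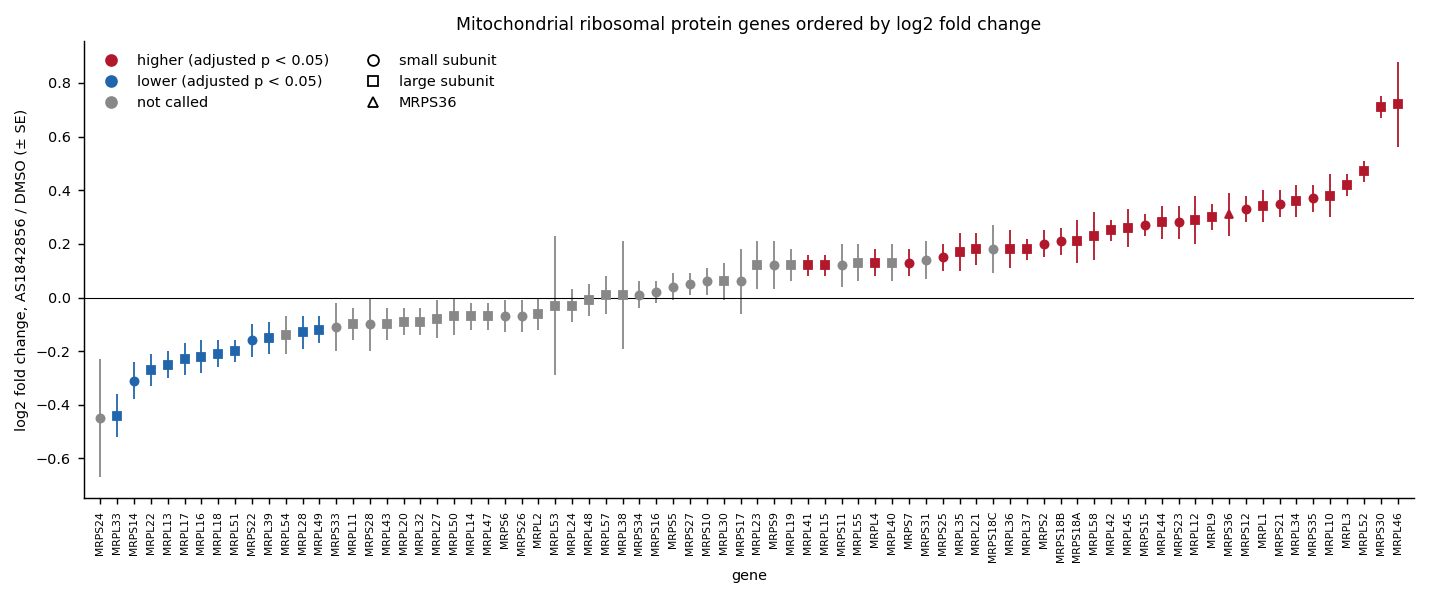
The plot shows the log2 fold change of each of the 78 members (y axis, AS1842856 over DMSO, bars give the SE) with genes in order of the change on the x axis; color marks the call and shape the subunit. MRPS30 and MRPL46 stand above 0.7, and the others lie between -0.45 and 0.47.

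Ranges of CPM over the 3 libraries of each group did not overlap in 47 of the 78 members, 33 of them higher and 14 lower with AS1842856. Over all genes tested that share was 59.9%, with 29.5% higher and 30.3% lower. Of the 43 members called, 40 did not overlap, and MRPL36, MRPL39 and MRPL41 did. Among members that did not pass the test, MRPS24, MRPL54, MRPL47, MRPS10, MRPL19, MRPL55 and MRPL40 did not overlap either.

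MRPS30 had the lowest adjusted p of all members. Its protein sits in the large subunit and has no bacterial counterpart, and the gene (ENSG00000112996) lies at chr5:44808925-44820428 on the + strand of GRCh38. MRPS30 was at 85.6, 92.0 and 93.1 CPM in DMSO and at 155, 145 and 144 CPM with AS1842856 (replicates A, B and C). All 3 treated libraries stood far above all 3 control libraries, and the groups were tight. The mean rose from 90.2 ± 4.06 to 148 ± 5.89 CPM (SD, n = 3), by 64.0%, with a log2 fold change of 0.71 (SE 0.04) and an edgeR adjusted p of 2.24e-40. No exon base of MRPS30 was shared with another annotated gene.

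MRPL46 had a change of like size at a level near the bottom of the family. It encodes a mitochondria-specific protein of the large subunit, and its gene (ENSG00000259494) lies at chr15:88459476-88467419 on the - strand. MRPL46 held 106, 44 and 95 counts in DMSO and 138, 152 and 119 counts with AS1842856, or 4.83, 2.865 and 5.11 CPM against 8.28, 6.66 and 6.67 CPM. Every treated library was above every control library, with control replicate B the lowest of the 6. The log2 fold change was 0.72 (SE 0.16, edgeR adjusted p = 2.84e-05). It ranged from 0.53 to 0.85 when single libraries were left out, and passed the test each time. Of the exon bases of MRPL46, 11.3% are shared on the same strand with AC013489.1, and under log2(FPKM + 1) with no filter the change was 0.35 and did not pass (limma adjusted p = 0.0582).

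MRPL52 and MRPL3, both of the large subunit, came next among members at higher levels. MRPL52 (ENSG00000172590, chr14:22829879-22835037), which encodes a mitochondria-specific protein, was at 86.5, 83.5 and 87.3 CPM in DMSO and at 122, 120.4 and 115 CPM with AS1842856. The log2 fold change was 0.47 (SE 0.04, edgeR adjusted p = 1.05e-20). MRPL3 (ENSG00000114686, chr3:131462212-131502983) encodes the counterpart of bacterial ribosomal protein L3, which reaches toward the peptidyl transferase center. MRPL3 was at 191, 186 and 187 CPM in DMSO and at 256, 248 and 254 CPM with AS1842856. The log2 fold change was 0.42 (SE 0.04, edgeR adjusted p = 4.75e-23). In both genes the groups lay far apart compared with the spread inside each of them.

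**Figure D2:**
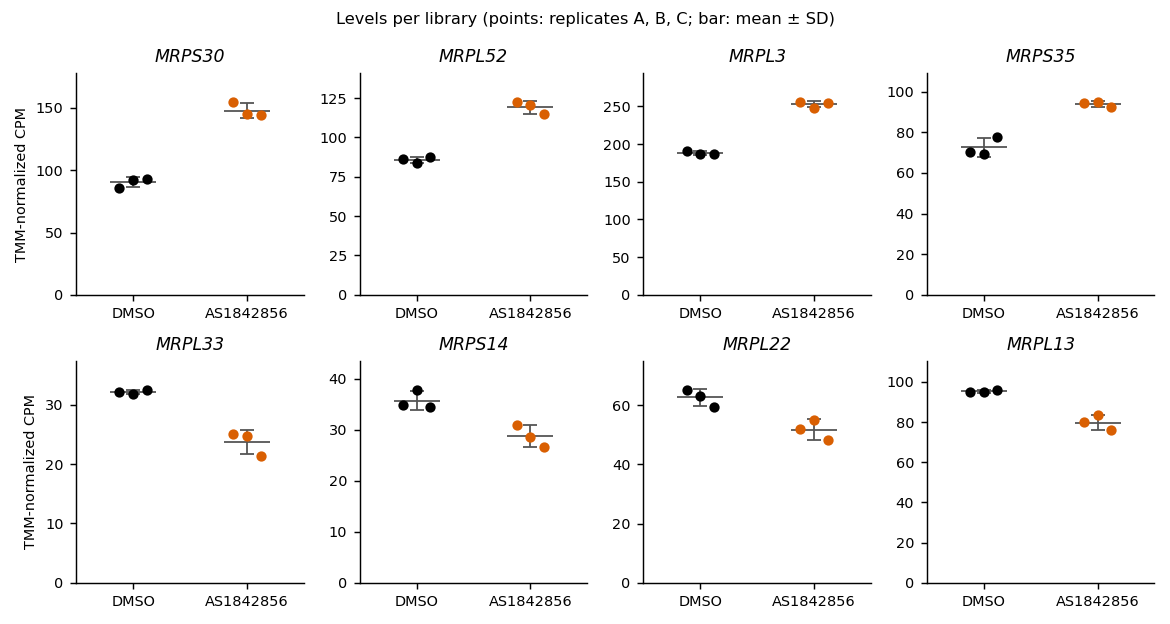
The panels show the level of 8 members in each library (y axis, TMM-normalized CPM from 0; x axis, DMSO and AS1842856, 3 libraries each; bars give mean ± SD). The upper row holds the members MRPS30, MRPL52, MRPL3 and MRPS35, in which every treated library is above every control library, and the lower row MRPL33, MRPS14, MRPL22 and MRPL13, in which every treated library is below.

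In the small subunit, MRPS35, MRPS21 and MRPS12 rose most. MRPS35 (ENSG00000061794), which encodes a mitochondria-specific protein, was at 70.55, 69.3 and 77.9 CPM in DMSO and at 94.6, 94.9 and 92.25 CPM with AS1842856, a log2 fold change of 0.37 (SE 0.05, edgeR adjusted p = 2.3e-12). MRPS21 (ENSG00000266472) rose by 27.5%, from 88.7 ± 7.97 to 114 ± 1.96 CPM (SD, n = 3), and its lowest control library was replicate B. MRPS12 (ENSG00000128626), the counterpart of the bacterial decoding center protein S12, rose by 25.5%, from 72.2 ± 2.67 to 90.7 ± 0.909 CPM (SD, n = 3). Groups did not overlap in any of these genes. In all, 9 of the 26 small subunit members rose and 2 fell (34.6% and 7.69%, against 27.6% and 28.4% of all genes), and their median log2 fold change was 0.09. The other 6 that rose were MRPS18B, MRPS23, MRPS15, MRPS2, MRPS25 and MRPS7, with log2 fold changes between 0.13 and 0.28. MRPS7 passed only without AS1842856 replicate A among the 6 fits that left out a library (edgeR adjusted p up to 0.187), and not with DESeq2, with no filter or with the replicate block. MRPS25 did not pass without DMSO replicate B (0.0554).

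In the large subunit, 21 of 51 members rose and 10 fell (41.2% and 19.6%, against 27.6% and 28.4% of all genes), with a median of 0.06. The difference between the subunits was not tested. MRPL1 and MRPL10 are counterparts of bacterial proteins of the ribosomal stalks. MRPL10 (ENSG00000159111) rose with a log2 fold change of 0.38 (SE 0.08, edgeR adjusted p = 1.76e-05), and MRPL1 (ENSG00000169288) with 0.34 (SE 0.06, edgeR adjusted p = 9.44e-07). MRPL1 was even in DMSO, at 35.8, 34.4 and 35.1 CPM, and spread more widely with AS1842856, at 38.9, 47.9 and 46.6 CPM. MRPL34 (ENSG00000130312), the counterpart of bacterial L34, rose by 28.5%, from 48.0 ± 3.31 to 61.9 ± 1.2 CPM (SD, n = 3). MRPL12, the counterpart of the bacterial L7/L12 stalk protein, rose by 0.29 on the log2 scale, but did not pass without DMSO replicate A (edgeR adjusted p = 0.0548). MRPL58, a peptidyl-tRNA hydrolase that became part of the large subunit, rose by 0.23 (edgeR adjusted p = 0.0195). It passed in only 2 of the 6 fits that left out a library, those without AS1842856 replicate B or DMSO replicate B (adjusted p up to 0.106 in the others), and not with DESeq2 or with no filter. MRPL45, which lies near the inner membrane, rose by 0.26.

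MRPL33 had the largest decrease among members that passed the test. It encodes the counterpart of the small bacterial protein L33, and its gene (ENSG00000243147) lies at chr2:27771717-27988087 on the + strand. MRPL33 was at 32.1, 31.8 and 32.45 CPM in DMSO and at 25.1, 24.7 and 21.4 CPM with AS1842856. The control libraries were almost level and all 3 treated libraries were below them, with replicate C the lowest. The log2 fold change was -0.44 (SE 0.08, edgeR adjusted p = 1.25e-07). Of its exon bases, 21.1% are shared on the same strand with BABAM2, which held 51.8% as many counts, and the part of these reads in the result was not tested.

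MRPS14, MRPL22 and MRPL13 fell by less. MRPS14 (ENSG00000120333), the counterpart of bacterial S14 in the head of the small subunit, was at 34.9, 37.8 and 34.5 CPM in DMSO and at 31.0, 28.5 and 26.6 CPM with AS1842856, a log2 fold change of -0.31 (SE 0.07, edgeR adjusted p = 4.52e-05). MRPL22 (ENSG00000082515), whose bacterial counterpart lines the peptide exit tunnel, was at 65.1, 63.3 and 59.5 CPM and at 52.0, 55.1 and 48.2 CPM, a log2 fold change of -0.27 (SE 0.06, edgeR adjusted p = 5.5e-06). MRPL13 (ENSG00000172172), the counterpart of bacterial L13, was at 95.15, 94.7 and 95.9 CPM and at 79.9, 83.5 and 75.9 CPM, a log2 fold change of -0.25 (SE 0.05, edgeR adjusted p = 6.16e-07). In each of these genes every treated library was below every control library. MRPS14 shares 13.5% of its exon bases with CACYBP, a gene of the other strand with 672% as many counts, and the use of strand in counting is not stated.

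The other members that fell were MRPL17 (-0.23), MRPL16 (-0.22), MRPL18 (-0.21), MRPL51 (-0.20), MRPS22 (-0.16), MRPL39 (-0.15), MRPL28 (-0.13) and MRPL49 (-0.12), all log2 fold changes with edgeR adjusted p between 1.27e-05 and 0.0385. MRPL18, the counterpart of the bacterial protein L18 of the central protuberance, fell by 13.8%, from 107 ± 1.09 to 92.6 ± 5.63 CPM (SD, n = 3). MRPL51, a mitochondria-specific protein gene, was at 80.3 ± 4.39 FPKM in DMSO and 70.0 ± 0.997 FPKM with AS1842856 (SD, n = 3), and 31.3% of its exon bases lie opposite NCAPD2, which had 226% as many counts. The calls of MRPS22, MRPL39, MRPL28 and MRPL49 were lost when single libraries were left out. MRPS22 did not pass without AS1842856 replicate C or DMSO replicate B (edgeR adjusted p = 0.0607 and 0.105). MRPL39 did not pass without AS1842856 replicate B or C or DMSO replicate A or B, with an adjusted p of up to 0.42, and its groups overlapped. MRPL28 did not pass without AS1842856 replicate B or C or DMSO replicate A (adjusted p up to 0.117), nor MRPL49 without AS1842856 replicate A or DMSO replicate B or C (up to 0.212). DESeq2 called none of these 4 genes.

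Members with a bacterial counterpart and those specific to mitochondria were both split. Of 47 members with a counterpart, 17 rose and 8 fell (36.2% and 17.0%), with a median log2 fold change of 0.06. Of 30 mitochondria-specific members, 13 rose and 4 fell (43.3% and 13.3%), with a median of 0.09. Over all genes tested, 27.6% rose and 28.4% fell, and over all members 39.7% and 15.4%. Both members with a change of at least 0.5, MRPS30 and MRPL46, belonged to the mitochondria-specific class. Of the MRPS18 paralogs, MRPS18A and MRPS18C were classed with a bacterial counterpart and MRPS18B as mitochondria-specific. The counts above would shift if MRPS18A and MRPS18B were classed alike. No test was made between the classes.

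The 3 paralogs that share the name MRPS18 encode proteins at different places of the ribosome. MRPS18B rose, from 82.6, 77.35 and 85.7 CPM to between 94.5 and 95.05 CPM in the 3 treated libraries, with a log2 fold change of 0.21 (SE 0.05, edgeR adjusted p = 3.98e-05). MRPS18A had the same log2 fold change of 0.21 with a wider error (SE 0.08, edgeR adjusted p = 0.023), and it did not pass without AS1842856 replicate A, DMSO replicate A or DMSO replicate C (adjusted p = 0.107, 0.0739 and 0.152). MRPS18C was at 18.9, 23.4 and 19.3 CPM in DMSO and at 21.3, 23.2 and 24.7 CPM with AS1842856, so that its groups overlapped. Its log2 fold change of 0.18 did not pass (SE 0.09, edgeR adjusted p = 0.0638), although it passed without AS1842856 replicate A (0.0318) or DMSO replicate B (0.0106). The opposite strand of MRPS18A carries RSPH9 over 47.0% of its exon bases and that of MRPS18C carries ABRAXAS1 over 40.2%.

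MRPS36, the gene that is no ribosomal subunit, rose from 22.6, 22.4 and 22.4 CPM to 31.1, 26.7 and 26.02 CPM. The control libraries were nearly equal and AS1842856 replicate A was the highest. The log2 fold change was 0.31 (SE 0.08, edgeR adjusted p = 0.000365).

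The smallest changes were those of MRPL57, MRPS34 and MRPL48. MRPS34, a mitochondria-specific gene of the small subunit, was at 76.8, 72.3 and 74.7 CPM in DMSO and at 70.9, 76.1 and 79.0 CPM with AS1842856, a log2 fold change of 0.01 (SE 0.05). MRPL57 had 0.01 (SE 0.07) and MRPL48 -0.01 (SE 0.06). In each of them the groups overlapped.

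Levels differed far more between members than between treatments. In DMSO the mean FPKM ran from 0.660 ± 0.190 for MRPL46 to 107 ± 2.09 for MRPL15 (SD, n = 3), a 162-fold span, with a median of 17.9. With AS1842856 the span was 121-fold and the median 18.9. After MRPL15, the counterpart of bacterial L15, the highest levels in DMSO were those of MRPL37 (98.4 ± 0.399 FPKM), MRPL41 (89.4 ± 9.04), MRPL14 (83.3 ± 5.40) and MRPL51 (80.3 ± 4.39). All of these encode large subunit proteins. Of the 77 pairs of neighbours in that order, 65 overlapped in their libraries and so did not differ beyond their spread, and 12 did not overlap. The orders in both groups had a Spearman rho of 0.968 across the 78 genes, given as a description, since all genes share the same libraries.

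**Figure D3:**
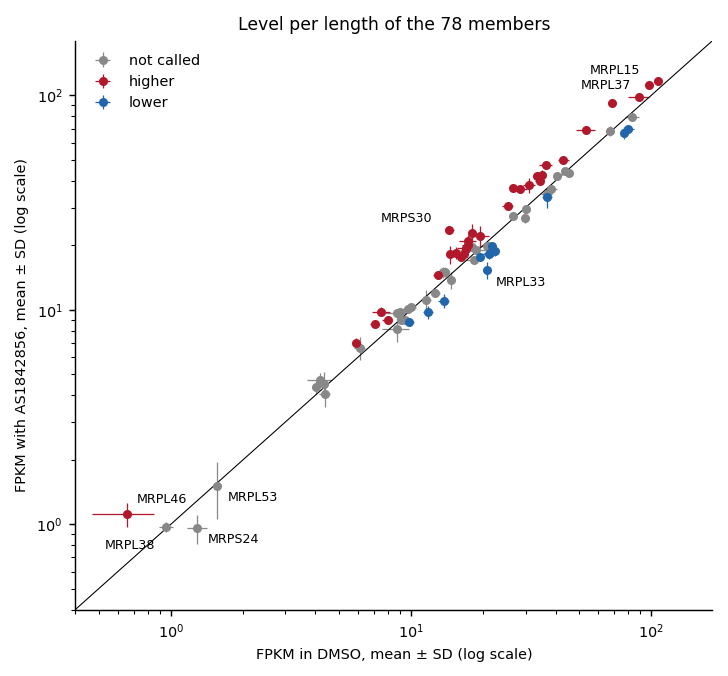
Each point is 1 of the 78 members, with its mean FPKM in DMSO (x axis) and with AS1842856 (y axis), both on log scales with the SD of 3 libraries as bars, and the line marks equal levels. The members run from 0.660 FPKM (MRPL46) to 107 FPKM (MRPL15) in DMSO and stay close to the line.

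Among the most abundant members, MRPL37 rose from 252, 254 and 251 CPM to 285, 278 and 298 CPM, a log2 fold change of 0.18 (SE 0.04, edgeR adjusted p = 2.78e-06). MRPL15 rose by 9.0% (log2 fold change 0.12, edgeR adjusted p = 0.006), and it did not pass without AS1842856 replicate B (0.0563). MRPL41 rose by 9.0% as well (edgeR adjusted p = 0.0119), but its groups overlapped, since DMSO replicate A, at 126 CPM, was as high as the treated libraries. Without DMSO replicate B its log2 fold change was 0.06 and did not pass (adjusted p = 0.298), nor did it without DMSO replicate C (0.0899) or AS1842856 replicate C (0.0588). MRPL14, which lies at the face toward the small subunit, had a log2 fold change of -0.07 that did not pass (edgeR adjusted p = 0.224), and -0.12 that passed without DMSO replicate B (0.0452).

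At the other end, MRPL46, MRPL38, MRPS24 and MRPL53 were the only members under 2 FPKM in DMSO, and each of them shares exon bases on the same strand with another annotated gene. The share was 11.3% for MRPL46, 37.5% for MRPL38 (with AC087289.3), 23.2% for MRPS24 (with the readthrough gene URGCP-MRPS24) and 45.2% for MRPL53 (with CCDC142, which held 581% as many counts). Such overlap was not limited to low members, since MRPL12, with the largest share of 68.2%, was at 17.2 FPKM and MRPS28, with 35.8%, at 8.72 FPKM in DMSO. In all, 16 of the 78 members share exon bases on the same strand and 29 on the opposite strand, and the part of this in their levels was not tested. MRPS24, the counterpart of bacterial S3, was at 3.74, 3.32 and 3.12 CPM in DMSO and at 2.88, 2.10 and 2.58 CPM with AS1842856. The groups did not overlap, but the log2 fold change of -0.45 had an SE of 0.22 and did not pass (edgeR adjusted p = 0.0748), while it passed without AS1842856 replicate A (0.0484). MRPL38 and MRPL53 had log2 fold changes of 0.01 (SE 0.20) and -0.03 (SE 0.26). The next lowest, MRPS11, was at 4.03 ± 0.0660 FPKM in DMSO and 4.36 ± 0.288 FPKM with AS1842856 (SD, n = 3).

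Promoters of 18 members lie head to head with the start of another protein-coding gene within 1000 bases, in 19 pairings that count MRPL46 and MRPS11, whose starts are 34 bases apart, once from each side. Of the pairs counted, MRPL32 and PSMA2 overlap most at their starts, by 24 bases. Pairs that overlap much further there, such as MRPL49 and FAU, were left out. Both genes were tested in 17 of the pairings. Both rose in 1 and both fell in 1, and in the others at most 1 gene passed. For example, NDUFB5 rose (0.26) beside MRPL47 (-0.07, not called), and HELQ fell (-0.29) beside MRPS18C (0.18, not called). MRPL18 fell (-0.21) beside TCP1 (0.05, not called), and MRPL36 rose (0.18) beside NDUFS6 (-0.05, not called). MRPL36 passed in only 3 of the 6 fits that left out a library (edgeR adjusted p up to 0.353). Its call was also lost with DESeq2, with no filter and in the limma fits. MRPL52 and SLC7A7, an amino acid transporter gene whose start is 59 bases away, both rose, SLC7A7 from 3.201 ± 0.299 to 10.7 ± 0.887 CPM (SD, n = 3) with a log2 fold change of 1.75. MRPL13 and MTBP both fell, MTBP with a log2 fold change of -0.38 (SE 0.07, edgeR adjusted p = 1.14e-07). In no pairing counted did the genes pass the test in opposite directions. Outside the count, MRPL49 fell (log2 fold change -0.12, edgeR adjusted p = 0.0385) while FAU on the other strand rose (0.37, edgeR adjusted p = 7.57e-19). In the shared promoter of MRPL46 and MRPS11 the changes were 0.72 and 0.12 (SE 0.16 and 0.08), and only that of MRPL46 passed.

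Summed over the 78 members, the level was 4586, 4461 and 4517 CPM in DMSO and 4866, 4877 and 4867 CPM with AS1842856. All 3 treated libraries were above all 3 control libraries, and the mean rise was 7.72%, with 9.07% for the small subunit and 6.91% for the large. In FPKM, where short genes weigh more, the rise was 6.46%. The members took between 0.448% and 0.487% of all counts in a library. Genes with many counts weigh most in the CPM sums, and 48 members had a positive and 30 a negative log2 fold change. No test was made on the sums.

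**Figure D4:**
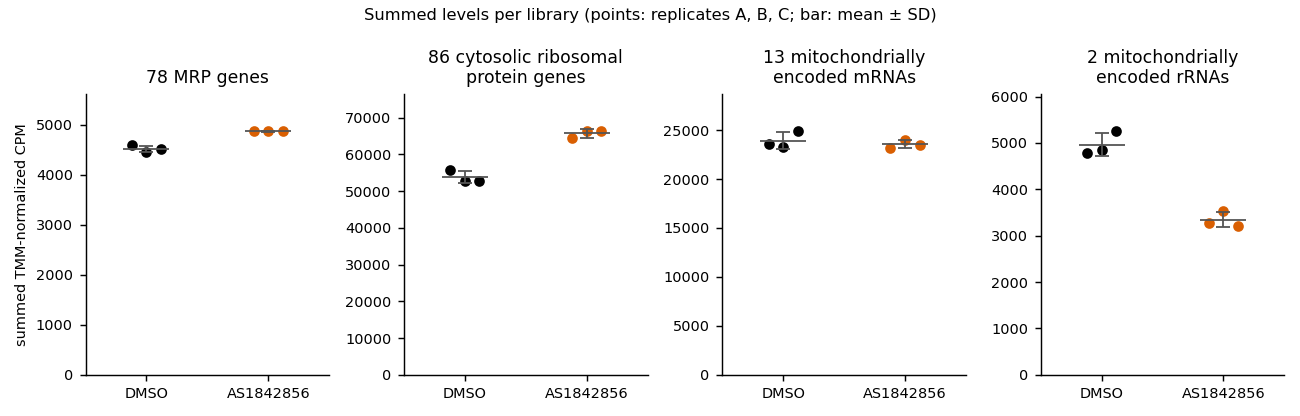
The panels show summed TMM-normalized CPM in each library (y axis from 0; x axis, DMSO and AS1842856, 3 libraries each; bars give mean ± SD) for the members, cytosolic ribosomal protein genes, mitochondrial mRNAs and mitochondrial rRNAs. The members rise from a mean of 4521 to 4870 CPM, and the rRNAs fall from 4965 to 3342 CPM.

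Genes without an MRP symbol encode 5 further proteins of the mitochondrial ribosome, of which 2 rose and 1 fell (40% and 20%, against 27.6% and 28.4% of all genes). AURKAIP1, a small subunit protein gene, rose with a log2 fold change of 0.17 (SE 0.04, edgeR adjusted p = 1.94e-05), and GADD45GIP1, of the large subunit, with 0.10 (SE 0.04, adjusted p = 0.0368). DAP3, which encodes a GTP-binding protein of the small subunit, fell from 186, 191 and 185 CPM to 166, 165 and 169 CPM (log2 fold change -0.17, SE 0.04, edgeR adjusted p = 6.07e-05). PTCD3 and CHCHD1 were at 0.00 and did not pass. GADD45GIP1 passed in only 1 of the 6 fits that left out a library, the one without AS1842856 replicate B.

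The RNA partners of these proteins were lower. MT-RNR2, the rRNA of the large subunit, was at 4365, 4404 and 4816 CPM in DMSO and at 2987, 3205 and 2923 CPM with AS1842856, a log2 fold change of -0.58 (SE 0.03, edgeR adjusted p = 2.73e-36). MT-RNR1, the rRNA of the small subunit, was at 428, 439 and 444 CPM and at 296, 322 and 294 CPM, a log2 fold change of -0.52 (SE 0.04, edgeR adjusted p = 1.88e-34). Every treated library was below every control library, and the sum of both fell by 32.7%. How rRNA was removed or mRNA selected is not stated, so these levels describe what remained in the libraries. Of the 13 mitochondrially encoded mRNAs, which the ribosome translates, 2 rose and 2 fell (15.4% each, against 27.6% and 28.4% of all genes). They lay between -0.13 for MT-CO2 and 0.12 for MT-ND4L, and their sum changed by -1.63%.

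Among 27 genes of mitochondrial ribosome assembly and rRNA modification, 8 rose and 9 fell (29.6% and 33.3%), with a median log2 fold change of -0.09. Over all genes tested, 27.6% rose and 28.4% fell. MRM1, an rRNA methyltransferase gene, rose most, from 6.57 ± 0.692 to 11.7 ± 1.33 CPM (SD, n = 3; log2 fold change 0.83, edgeR adjusted p = 1.6e-09). TFB1M, the dimethyltransferase of the small subunit rRNA, fell most (-0.38, SE 0.11, edgeR adjusted p = 0.00126). Of 17 translation factors and partners, 10 rose and 4 fell (58.8% and 23.5%), with a median of 0.22. GUF1, a GTPase of the ribosome, rose by 0.47 and C12orf65, a gene of stalled ribosome rescue, had -0.89 (SE 0.10, edgeR adjusted p = 9.73e-17). Of 17 mitochondrial aminoacyl-tRNA synthetases, 3 rose and 4 fell (17.6% and 23.5%), and HARS2 rose most, at 0.41. Of 16 genes of mitochondrial DNA upkeep, transcription and RNA processing, 5 rose and 4 fell, with KIAA0391, the nuclease of mitochondrial RNase P, at 0.49 and the transcription factor TFB2M at -0.43.

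ESRRA and MYC, known regulators of mitochondrial genes, changed by more than any member. ESRRA, a nuclear receptor, rose from 68.7, 68.4 and 76.1 CPM to 162, 159 and 166 CPM (log2 fold change 1.19, SE 0.04, edgeR adjusted p = 1.53e-73). MYC fell from 193, 172 and 188 CPM to 72.9, 73.7 and 73.6 CPM (-1.33, SE 0.04, edgeR adjusted p = 1.47e-84). Of the 8 regulators tested, 1 rose and 3 fell (12.5% and 37.5%, against 27.6% and 28.4% of all genes). The other 2 that fell were GABPA (-0.21) and YY1 (-0.11), while NRF1 had 0.10 and did not pass (edgeR adjusted p = 0.297). PPARGC1A had too few counts for the test.

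Genes of cytosolic ribosomal proteins mostly rose. Of 84 tested, 77 rose (91.7%, against 27.6% of all genes), with a median log2 fold change of 0.28. The 3 that fell (3.57%, against 28.4%) were RPS27L, RPL39L and RPL7L1, which are paralogs or relatives of standard subunits. Their summed level rose by 22.2%, from 53736 to 65661 CPM, against 7.72% for the members, and the difference between the families was not tested. RPS27L fell most of them (-1.29, SE 0.07, edgeR adjusted p = 1.04e-49).

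**Figure D5:**
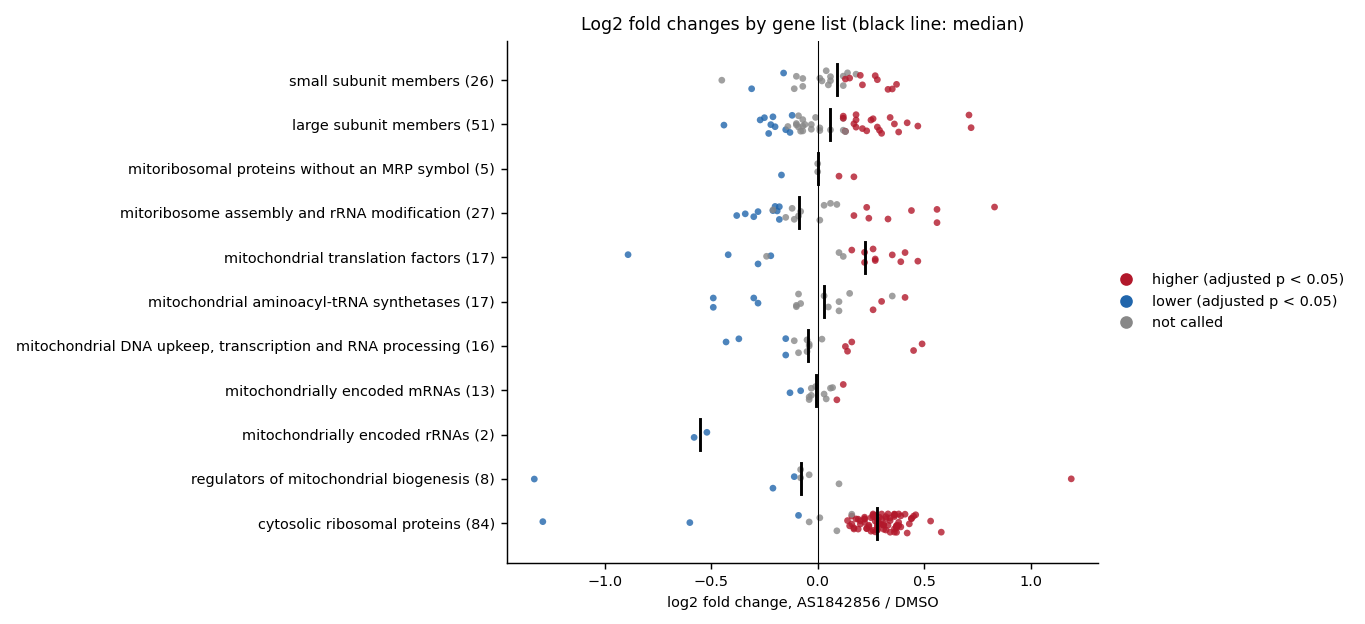
Each point is 1 tested gene, with its log2 fold change (x axis, AS1842856 over DMSO) by gene list (y axis, number of genes in parentheses), color marks the call and the black line the median. The members of both subunits lie on both sides of 0, the mitochondrial rRNAs near -0.55 and most cytosolic ribosomal protein genes around 0.28.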

How the data were processed

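RNA-Seq was measured in 6 libraries of BT549 cells, grouped by the labels. The authors deposited raw counts per gene, and the counting tool and its use of strand are not given in the sources used here. The authors also deposited FPKM per library, and the lengths these imply were within 0.584% of GENCODE 29 exon-union lengths for every member. The methods text names STAR, and the submitters' processing notes list CASAVA, Bowtie 0.12.2, GRCh38 and hg38. Symbols, positions and exon overlaps came from GENCODE 29 (Ensembl 94, GRCh38).

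Counts were fitted in R 4.3.3 with edgeR 4.0.16 (filterByExpr, minimum count 10 and total 15, TMM, robust glmQLFit, glmQLFTest, no block). P-values were adjusted over all 14338 genes, and calls are an adjusted p below 0.05. Each SE was derived from the test, as the absolute log2 fold change divided by the square root of the quasi-likelihood F. The tests were checked first on simulated counts, in which a far smaller share of genes changed than was called here. No result above rests on that check. Alternatives used DESeq2 1.42.0, other scalings and filters, each library left out, a replicate block, and limma 3.58.1 on log2(FPKM + 1) or log2(FPKM + 0.1), with a mean FPKM of at least 0.5 or no filter.

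Named were the 10 largest increases and 10 largest decreases among called members, the 5 highest and 5 lowest levels, the 3 smallest changes, the MRPS18 paralogs, MRPS36, and the extremes of each other list, of which some single genes are not reported here. Members named beyond this were chosen after their values were seen. The members and lists were chosen with earlier results of these data known. Promoters came from RefSeq (GRCh38.p14), with 70 of 78 members matched by symbol or Ensembl ID. No library repeated another of its group within sampling noise (chi-square per degree of freedom 2.37 to 3.29).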

Additional observations from a re-analysis of the deposited data

How the results depend on the processing

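Over the 9 alternatives that kept all libraries, between 24 and 31 members were higher and between 8 and 13 lower, the lowest counts with DESeq2, and the median log2 fold change was 0.07 to 0.11. With each library left out, 25 to 29 were higher and 10 to 13 lower, the large subunit had 16 to 18 higher and 8 to 11 lower, and the small subunit 8 to 10 higher and 1 to 3 lower. The 2 small subunit members that fell became 1 with DESeq2, with log2(FPKM + 1) without a filter, and without AS1842856 replicate C or DMSO replicate B, where MRPS22 was lost. Of the 43 called members, 29 were called in all 6 of these fits, and members called in both kept their direction in every setting. The order by FPKM was that by CPM per exon length, but both divide by nearly the same lengths. This match was therefore fixed in advance and says nothing on how the order depends on the lengths used.

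Changes near 0, none of which passed the test, turned sign. CHCHD1 was at 0.00 with DESeq2 or its size factors, at 0.01 in the 3 limma fits and with the replicate block, and between -0.04 and 0.07 with libraries left out. PTCD3 was at 0.00 with library totals or a mean of at least 50 counts, at -0.01 with no filter, and between -0.04 and 0.03 with libraries left out. With no filter MRPL38, MRPL57 and MRPS34 were at 0.00. With libraries left out MRPL38 was between -0.04 and 0.06, MRPL57 between -0.06 and 0.15, MRPS34 between -0.02 and 0.05, MRPL53 between -0.26 and 0.17, and MRPL48 between -0.03 and 0.00. The cause was not tested.

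The replicate letters were shared by both groups, but libraries with the same letter did not deviate together (correlations of 0.042, -0.012 and -0.003), so they were not taken as pairs. With the letter as a replicate block, 30 members were higher and 12 lower, and the only call lost was that of MRPS7. For MRPL38, MRPS24 and MRPL53, which had few assigned counts, SEs of 0.20, 0.22 and 0.26 leave changes of the size found in most members not detectable.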

Other observations

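The annotation also holds 75 pseudogenes named after mitochondrial ribosomal proteins. Only 14 of them had any count, and together they held between 76 and 160 counts in a library, against 68511 to 111366 counts on the 78 genes. The 3 that had enough counts for the test, MRPL45P2, MRPS31P4 and MRPS31P5, did not pass it.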
